A study of Mus musculus with 12 samples.

Results

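Ribosome assembly and rRNA processing genes were followed in mouse CD8 T cells as 44 named genes, chosen by function and grouped by the step of ribosome assembly in which their products act. The arrays measured 43 of them with 84 probe sets of their own, out of 34945 probe sets with a single gene symbol for 18193 genes. The remaining gene, Mrto4, had only a probe set shared with pseudogenes and is not used. All 43 genes passed the filter on low values, on all 12 arrays, and were tested among 13158 genes.

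The samples were CD8 T cells enriched from spleens of male mice, whose age the labels do not give. WT cells came from Cd4-Cre/Scap+/+ littermate controls and KO cells from Cd4-Cre/Scapfl/fl mice, so the Cre transgene was present in both genotypes. The Cd4 promoter drives Cre in developing T cells, before the CD4 and CD8 lineages separate, and spleen cells other than T cells keep Scap. SCAP is the escort protein that carries SREBP transcription factors, the activators of sterol and fatty acid synthesis genes, from the ER to the Golgi. Cells were quiescent (T0) or had been activated for 6 h (T6) on bound antibody to CD3 with soluble antibody to CD28, which gave 4 groups of 3 arrays. The design text gives 3 mice of each genotype and does not say which T0 and T6 arrays share a mouse.

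Ribosomes are built in the nucleolus, where RNA polymerase I makes a long precursor of the rRNAs. Small nucleolar RNPs guide its chemical modification, the small subunit processome folds and cuts the 40S part, and separate sets of factors mature the 40S and 60S subunits and accompany them to the cytoplasm. Building up this machinery is among the early steps by which an activated T cell prepares to grow and divide. The transcription factor MYC is a known activator of many of these genes.

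Levels are given as log2(signal + 16) of a gene's representative probe set, called the log2 level, and comparisons as log2 differences with the standard error (SE) of the limma fit. A gene was called where its Benjamini-Hochberg adjusted p over all 13158 genes was below 0.05. In bulk samples such as these, fewer cells of a type and less RNA per cell cannot be told apart.

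Across probe sets, Pearson correlations lay between 0.969 and 0.978 for pairs of arrays from the same group and between 0.949 and 0.977 for other pairs. The CD8 T cell markers had mean log2 levels from 12.44 to 13.54 over the 12 arrays, with Cd8a between 12.48 and 13.66. The mean of 2 CD4 T cell markers, Zbtb7b and Cd40lg, lay between 5.12 and 6.62. Cd4 itself was not among the genes tested, so this mean does not measure how many CD4 T cells were present. At T0 the Scap log2 level was 11.26 ± 0.25 in WT cells and 11.01 ± 0.23 in KO cells (SD, n = 3). At T6 it was 11.57 ± 0.02 in WT cells and 11.10 ± 0.04 in KO cells. Neither Scap difference was called (log2 difference -0.25, adjusted p = 0.593 at T0, and -0.47, adjusted p = 0.273 at T6). The position of the Scap probes relative to the floxed part of the gene was not analysed here, so these values do not check the deletion. The library labelled KO T6 replicate 2 stood apart on erythroid and cell cycle markers. Its erythroid mean was a log2 level of 12.72, against 10.84 and 9.70 on the other KO T6 arrays. KO T0 replicate 2 also had the highest erythroid mean of its group (12.45, against 11.65 and 10.15) and the highest cell cycle mean (11.75, against 11.02 and 10.39). The ribosome assembly genes were highest of the KO T0 arrays on that library in 27 of 43 genes. For the 43 genes, the main results that rest on either library are given with and without it.

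Activation asks how far this machinery was raised within 6 h. In WT cells 38 of the 43 genes rose and 0 fell, where 11.3% of all tested genes rose. The median log2 difference of the 43 genes was 0.65, or 1.57-fold, against -0.06 for all tested genes. The smallest was 0.14 for Imp3 and the largest 1.34, or 2.53-fold, for Rrp1b. All 43 genes had every WT T6 array above every WT T0 array, a pattern found in 19.2% of tested genes. With each array centred on its median, the median of all genes moved to 0.05 and that of the 43 to 0.77, and the numbers of all genes that rose and fell went from 1492 and 1810 to 1907 and 1141.

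In KO cells 38 of the 43 genes also rose and 0 fell, where 10.4% of all tested genes rose. The median log2 difference was 0.61, or 1.52-fold, against -0.0036 for all tested genes, and the range ran from 0.12 to 1.19. In 40 genes the KO T6 arrays all lay above the KO T0 arrays (18.9% of tested genes), and Nop10, Imp3 and Ftsj3 overlapped. Without KO T6 replicate 2 the KO median was 0.70 and 39 genes rose, where 10.8% of all tested genes rose. Of the 43 genes, 36 rose in both genotypes, which is 36 of the 38 rises in each. Over all tested genes, 69.1% of the WT rises were called in KO and 75.1% of the KO rises in WT. Ftsj3 and Nop10 were called in WT cells and not in KO cells, Nle1 and Rrs1 the other way round, and Imp3, Npm1 and Wdr43 in neither.

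**Figure D1:**
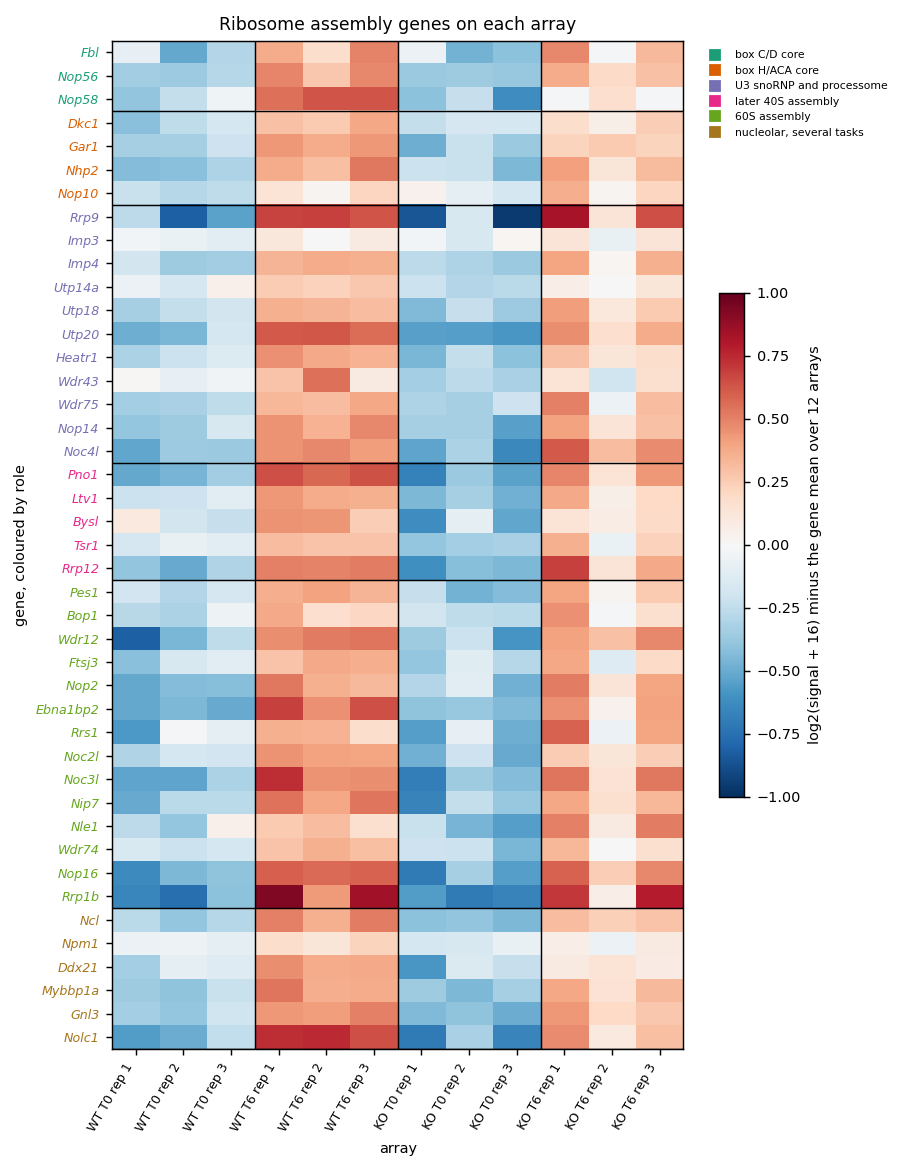
Log2 level of each of the 43 genes on each of the 12 arrays, minus the gene's mean over all arrays (colour, log2 scale). Genes are in rows, coloured by role, and arrays are in columns by group. T0 arrays are blue and T6 arrays red for nearly all genes, and KO T6 replicate 2 is paler than the other T6 arrays, with its lowest values of the KO T6 group in 40 of 43 genes.

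The Myc log2 level rose from 11.86 ± 0.03 to 13.24 ± 0.05 in WT cells (SD, n = 3; log2 difference 1.38, limma adjusted p = 5.53e-05). In KO cells it rose from 11.81 ± 0.07 to 13.08 ± 0.28 (SD, n = 3; log2 difference 1.27, adjusted p = 0.000123), with KO T6 replicate 2 lowest at 12.77. The genotypes differed by -0.16 in Myc log2 level at T6, a difference that was not called (adjusted p = 0.645). Because these genes moved together and are known MYC targets as a class, their promoters were searched for the E-box CACGTG, the sequence bound by MYC with MAX and also by SREBPs. It reads the same on both strands.

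RefSeq windows (GRCm38.p6) from 250 bases before to 50 bases after the start site were found for 39 of the 44 genes, in 43 windows. CACGTG lay in 11 of the 43 windows (25.6%), against 7.15% of all 32851 promoter windows, 9.57% of those of genes tested on the arrays and 18.2% of those of other ribosome biogenesis genes. In 8 of the 11 windows it lay within the 50 bases after the start, which holds for 18.6% of the 43 windows, 6.06% of the windows of other ribosome biogenesis genes, 1.42% of those of tested genes and 1.08% of all windows. The 11 stretches with an E-box are shown because they carry that count. Each is 30 bases of GRCm38.p6, read 5′ to 3′ on the gene's strand, with the E-box in capitals.
Imp4 (chr1:34439696-34439725, plus strand): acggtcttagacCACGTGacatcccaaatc
Utp18 (chr11:93885769-93885798, minus strand): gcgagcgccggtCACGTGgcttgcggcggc
Utp20 (chr10:88826765-88826794, minus strand): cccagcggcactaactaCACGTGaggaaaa
Wdr43 (chr17:71616220-71616249, plus strand): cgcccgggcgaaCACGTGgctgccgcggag
Pno1 (chr11:17211540-17211569, minus strand): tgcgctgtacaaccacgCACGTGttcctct
Ltv1 (chr10:13193092-13193121, minus strand): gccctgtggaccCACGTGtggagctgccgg
Tsr1 (chr11:74898092-74898121, plus strand): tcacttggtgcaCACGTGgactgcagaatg
Pes1 (chr11:3963965-3963994, plus strand): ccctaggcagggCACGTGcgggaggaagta
Nop2 (chr6:125131811-125131840, plus strand): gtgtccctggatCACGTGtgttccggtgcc
Nle1 (chr11:82908355-82908384, minus strand): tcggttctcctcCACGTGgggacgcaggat
Mybbp1a (chr11:72441347-72441376, plus strand): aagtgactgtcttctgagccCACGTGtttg
The E-box lies after the start site in Utp20, Wdr43, Pno1, Ltv1, Tsr1, Pes1, Nle1 and Mybbp1a, and before it in Imp4, Utp18 and Nop2. The 11 genes with the motif had a median WT log2 difference on activation of 0.59, the 27 with a window and no CACGTG one of 0.74, and the 5 with no window one of 0.52. These medians are descriptions and no test was made of them. Imp3 and Rrp9 lie on chromosome 9, as Scap does.

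The box C/D snoRNP core is formed by fibrillarin (Fbl), the methyltransferase that modifies rRNA riboses, and its scaffold partners Nop56 and Nop58. All 3 rose in both genotypes, with a median log2 difference of 0.74 in WT and 0.58 in KO cells. The largest WT rise was that of Nop58 (probe set 1450986_at). Its log2 level was 11.88, 12.04 and 12.24 on the WT T0 arrays and 12.83, 12.91 and 12.90 on the WT T6 arrays. In KO cells its log2 level was 11.87, 12.05 and 11.66 at T0 and 12.26, 12.45 and 12.27 at T6. All KO T6 arrays lay above the KO T0 arrays and below every WT T6 array. The log2 difference on activation was 0.83 in WT (SE 0.13, adjusted p = 0.00108) and 0.47 in KO (SE 0.13, adjusted p = 0.0244). The KO rise was lost when KO T0 replicate 1 or 3, or KO T6 replicate 2 or 3, was left out (adjusted p up to 0.0861). Nop56 rose by 0.74 in WT and 0.66 in KO on the log2 scale. Fbl rose by 0.64 in WT and 0.58 in KO on the log2 scale, with adjusted p = 0.0213 and 0.0386. These Fbl calls were lost without any 1 of several arrays (adjusted p up to 0.133, without KO T6 replicate 1).

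The box H/ACA core, which turns uridines into pseudouridines, consists of the pseudouridine synthase dyskerin (Dkc1) with Gar1, Nhp2 and Nop10. All 4 rose in WT cells and 3 in KO cells, with medians of 0.65 and 0.47 on the log2 scale. Nhp2 (probe set 1416606_s_at) had the largest WT rise. The log2 level of Nhp2 went from 12.39, 12.40 and 12.51 at T0 to 13.19, 13.12 and 13.34 at T6 in WT cells. In KO cells its log2 level went from 12.60, 12.60 and 12.37 to 13.23, 12.94 and 13.13. The T0 and T6 arrays were apart in both genotypes, and the T6 arrays of the genotypes overlapped. The Nhp2 log2 difference was 0.78 in WT (SE 0.11, adjusted p = 0.000744) and 0.58 in KO (SE 0.11, adjusted p = 0.00478). Dkc1 (probe set 1438016_at) had log2 levels of 12.79, 12.96 and 13.04 at T0 and 13.50, 13.47 and 13.60 at T6 in WT cells. Its KO log2 levels were 12.97, 13.04 and 13.03 at T0 and 13.39, 13.27 and 13.45 at T6. The KO T0 values lay within or near the WT T0 range, and each KO T6 value lay below each WT T6 value. Dkc1 rose by 0.60 in WT and 0.36 in KO (SE 0.09 in both, on the log2 scale). Its KO call was lost without KO T0 replicate 1 or 3 or KO T6 replicate 1 or 3 (adjusted p up to 0.0787). Gar1 rose by 0.70 in WT and 0.60 in KO on the log2 scale. Nop10 rose by 0.38 in WT (adjusted p = 0.0258) and stood at a log2 difference of 0.28 in KO (adjusted p = 0.0987). The Nop10 call in WT was lost when any of 5 WT arrays was left out, all but WT T6 replicate 2 (adjusted p up to 0.0855), and a KO call appeared without KO T6 replicate 2 (adjusted p = 0.0361).

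The U3 snoRNP and the small subunit processome make the early cuts that free the 40S precursor. Of 11 genes, 9 rose in WT and 9 in KO, with medians of 0.65 and 0.57 on the log2 scale. Rrp9 (probe set 1451293_at), the protein that marks the U3 snoRNP, had the largest WT rise of this group. The Rrp9 log2 level was 9.56, 8.998 and 9.28 on the WT T0 arrays and 10.50, 10.50 and 10.45 on the WT T6 arrays. In KO cells its log2 level was 8.96, 9.66 and 8.86 at T0 and 10.64, 9.94 and 10.46 at T6. The times did not overlap in either genotype, and the T0 arrays were widely spread. The Rrp9 log2 difference was 1.20 in WT (SE 0.24, adjusted p = 0.00515) and 1.19 in KO (SE 0.24, adjusted p = 0.0062). Utp20, a large scaffold of the processome, rose by 0.97 in WT and 0.89 in KO on the log2 scale. Noc4l, which acts with Nop14 in 40S assembly, rose by 0.87 in WT and 0.96 in KO. Nop14 rose by 0.73 and 0.67, and Imp4, a U3 snoRNP protein, by 0.65 and 0.57, in WT and KO on the log2 scale. The processome subunits Wdr75 (0.65 and 0.54), Heatr1 (0.62 and 0.57) and Utp18 (0.59 and 0.61) also rose, with log2 differences given for WT and KO. The Wdr75 call in KO was lost without KO T6 replicate 3 (adjusted p = 0.0518). As means of their probe sets, Utp18 stood at 0.26 and 0.30 (adjusted p = 0.385 and 0.326) and Heatr1 at 0.32 and 0.22 (adjusted p = 0.0599 and 0.193) in WT and KO. Utp14a had the smallest called log2 difference, at 0.31 in WT and 0.32 in KO. Both Utp14a calls were lost when most single arrays of their own comparison were left out, among them WT T0 replicate 2 and KO T6 replicate 3 (adjusted p up to 0.0816).

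Imp3, the partner of Imp4, was the gene that moved least on activation. Its log2 level was 12.27, 12.23 and 12.18 on the WT T0 arrays and 12.41, 12.30 and 12.38 on the WT T6 arrays. In KO cells it was 12.27, 12.13 and 12.32 at T0 and 12.42, 12.22 and 12.42 at T6. The WT times were just apart and the KO times overlapped. The Imp3 log2 difference was 0.14 in WT (SE 0.09, adjusted p = 0.323) and 0.12 in KO (SE 0.09, adjusted p = 0.424). Wdr43 stood at a log2 difference of 0.34 in both genotypes (SE 0.13, adjusted p = 0.0878 in WT and 0.104 in KO). Its WT call appeared without WT T6 replicate 3 and its KO call without KO T6 replicate 2 (adjusted p = 0.0431 and 0.0351).

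The factors of later 40S assembly, which act on the pre-40S particle up to its last steps in the cytoplasm, all rose in both genotypes, 5 of 5. Their medians were 0.57 in WT and 0.63 in KO on the log2 scale. Pno1 (probe set 1450735_at), which holds the 3′ end of the 18S rRNA precursor, had the largest WT rise. On the WT T0 arrays its log2 level was 11.14, 11.19 and 11.31, and on the WT T6 arrays 12.30, 12.23 and 12.29. Its KO log2 levels were 10.98, 11.29 and 11.12 at T0 and 12.14, 11.79 and 12.09 at T6. The times were far apart in both genotypes, and every KO T6 array lay below every WT T6 array. The Pno1 log2 difference on activation was 1.06 in WT (SE 0.12, adjusted p = 0.000171) and 0.88 in KO (SE 0.12, adjusted p = 0.000627). Rrp12, an export factor of ribosomal subunits in yeast, rose by 0.90 in WT and 0.89 in KO on the log2 scale. Ltv1, which leaves the particle late in its maturation, rose by 0.57 and 0.63, and Tsr1, a GTPase-like factor that holds the particle inactive, by 0.41 and 0.52. The Tsr1 call in WT was lost without WT T0 replicate 1 or WT T6 replicate 1 (adjusted p up to 0.0559). Bysl, which acts with the pre-40S particle in the nucleus, rose by 0.48 in WT and 0.54 in KO. Its calls were lost without any of WT T0 replicates 2 and 3, WT T6 replicates 1 and 2, KO T0 replicates 1 and 3, and KO T6 replicates 1 and 3 (adjusted p up to 0.116).

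Of the 14 factors of 60S assembly, 12 rose in WT and 13 in KO, with medians of 0.74 and 0.69 on the log2 scale. The largest rise of all 43 genes in WT cells was that of Rrp1b (probe set 1456117_at), a nucleolar protein of pre-60S particles. The Rrp1b log2 level was 10.52, 10.41 and 10.75 on the WT T0 arrays and 12.09, 11.59 and 12.01 on the WT T6 arrays. In KO cells it was 10.61, 10.46 and 10.50 at T0 and 11.88, 11.23 and 11.95 at T6. Replicate 2 was the lowest array of the T6 group in both genotypes. The Rrp1b log2 difference was 1.34 in WT (SE 0.20, adjusted p = 0.000975) and 1.17 in KO (SE 0.20, adjusted p = 0.00256). Ebna1bp2 (probe set 1428315_at), the mammalian counterpart of yeast Ebp2, had log2 levels of 11.09, 11.15 and 11.10 at T0 and 12.29, 12.06 and 12.25 at T6 in WT cells. Its KO log2 levels were 11.20, 11.23 and 11.16 at T0 and 12.06, 11.65 and 12.004 at T6. KO arrays lay above all WT arrays at T0 and below all WT arrays at T6. Ebna1bp2 rose by 1.09 in WT (SE 0.12, adjusted p = 0.000143) and by 0.71 in KO (SE 0.12, adjusted p = 0.00202) on the log2 scale. As the mean of its 3 probe sets, of which the other pair gave no rise and weak signal, its log2 difference was 0.37 in WT (adjusted p = 0.245) and 0.28 in KO (adjusted p = 0.411).

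Pes1, Bop1 and Wdr12 form the PeBoW complex, which is needed for processing of the rRNAs of the large subunit. Wdr12 rose by 1.01 in WT and 0.78 in KO (0.31, adjusted p = 0.0943 in KO as the mean of its probe sets), Pes1 by 0.59 and 0.61, and Bop1 by 0.46 and 0.43, on the log2 scale. The Bop1 calls were lost in WT without WT T0 replicate 1 or 2 or WT T6 replicate 1 or 3 (adjusted p up to 0.0921). In KO they were lost without 8 of the 12 arrays (adjusted p up to 0.13, without KO T6 replicate 1). Nop16 (1.08 and 0.97) and Noc3l (1.01 and 0.89) also rose 2-fold or more in WT cells, where 8 of the 43 genes did. Rrp9 and Rrp1b were the 2 that did in KO cells. Of all 13158 tested genes, 352 rose 2-fold or more in WT cells and 356 in KO cells. The rRNA methyltransferase Nop2 rose by 0.86 and 0.64, the RNA-binding factor Nip7 by 0.83 and 0.72, and Noc2l, the partner of Noc3l, by 0.64 and 0.60, in WT and KO on the log2 scale. Wdr74, which binds the remodelling ATPase NVL, rose by 0.49 and 0.46 on that scale. Ftsj3, another rRNA methyltransferase, rose by 0.57 in WT (adjusted p = 0.0152) and stood at 0.41 in KO (adjusted p = 0.0677). The Ftsj3 call was lost in WT without WT T0 replicate 1 (adjusted p = 0.0557) and appeared in KO without KO T6 replicate 2 (adjusted p = 0.0157).

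Nle1, whose yeast counterpart is removed from the pre-60S particle by the ATPase midasin, and Rrs1, whose yeast counterpart brings in the 5S particle, were called in KO cells and not in WT cells. The Nle1 log2 level was 8.55, 8.42 and 8.86 on the WT T0 arrays and 9.07, 9.11 and 8.97 on the WT T6 arrays. In KO cells it was 8.59, 8.34 and 8.26 at T0 and 9.31, 8.89 and 9.32 at T6. The times did not overlap in either genotype. The Nle1 log2 difference was 0.44 in WT (SE 0.15, adjusted p = 0.062) and 0.78 in KO (SE 0.15, adjusted p = 0.00546), and it was called in WT without WT T0 replicate 3 (0.57, adjusted p = 0.0333). Rrs1 stood at a log2 difference of 0.52 in WT (SE 0.20, adjusted p = 0.0891) and 0.68 in KO (SE 0.20, adjusted p = 0.0388). The Rrs1 call in KO was lost without any of 8 arrays, among them KO T6 replicate 1 (0.54, adjusted p = 0.134).

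The last group holds nucleolar proteins with several tasks, and 5 of its 6 genes rose in both genotypes, with medians of 0.76 in WT and 0.68 in KO on the log2 scale. Nolc1 (probe set 1428869_at), a chaperone of small nucleolar RNPs, had the largest WT rise. The Nolc1 log2 level was 10.98, 11.04 and 11.29 on the WT T0 arrays and 12.27, 12.28 and 12.18 on the WT T6 arrays. In KO cells it was 10.83, 11.21 and 10.88 at T0 and 12.01, 11.63 and 11.84 at T6. The times were apart in both genotypes, and every KO T6 array lay below every WT T6 array. The Nolc1 log2 difference on activation was 1.14 in WT (SE 0.14, adjusted p = 0.000298) and 0.85 in KO (SE 0.14, adjusted p = 0.00185). Nucleolin (Ncl), which binds nascent pre-rRNA, rose by 0.77 and 0.70, and Gnl3 (nucleostemin, a nucleolar GTPase) by 0.76 and 0.75, in WT and KO on the log2 scale. Mybbp1a, a nucleolar cofactor of transcription, rose by 0.75 and 0.66, and the RNA helicase Ddx21 by 0.60 and 0.42. The Ddx21 call in KO was lost without KO T0 replicate 1 or 3 or any KO T6 array (adjusted p up to 0.0962).

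Nucleophosmin (Npm1), an abundant nucleolar chaperone of histones and ribosomal proteins, was not called in either genotype. Its log2 level was 14.64, 14.65 and 14.61 on the WT T0 arrays and 14.88, 14.82 and 14.93 on the WT T6 arrays. In KO cells it was 14.52, 14.54 and 14.63 at T0 and 14.77, 14.64 and 14.79 at T6. The times were narrowly apart in both genotypes. The Npm1 log2 difference was 0.24 in WT (SE 0.08, adjusted p = 0.0503) and 0.17 in KO (SE 0.08, adjusted p = 0.169). The WT value became a call under 9 of 24 alternatives, among them leaving out KO T6 replicate 2 (adjusted p = 0.0392).

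**Figure D2:**
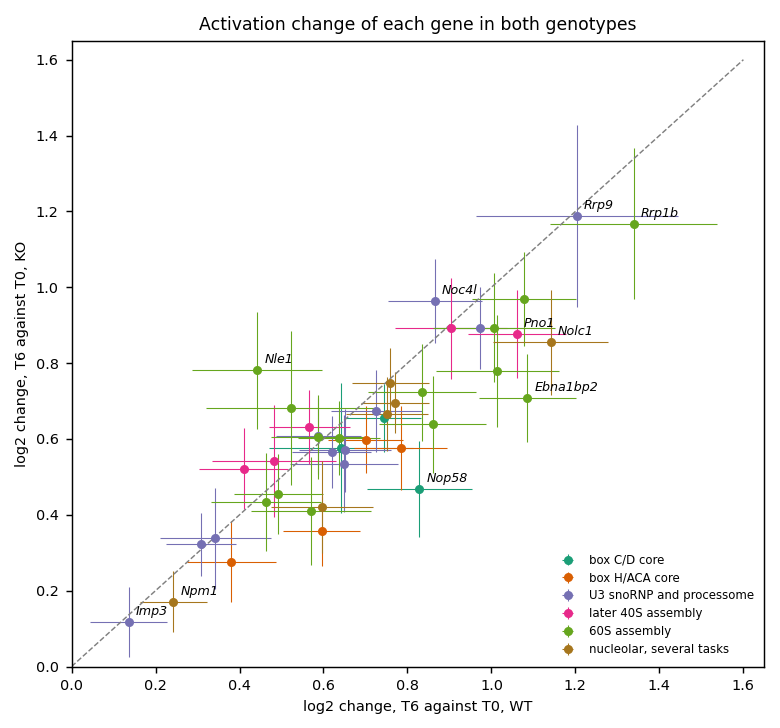
Log2 difference on activation (T6 against T0) of each of the 43 genes in WT (horizontal axis) and KO cells (vertical axis), with bars of 1 SE, coloured by role. The dashed line marks equal change; 34 of 43 genes lie below it, Nop58 and Ebna1bp2 among them, and Nle1 lies above it.

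A companion list of 109 other measured ribosome biogenesis genes moved in the same direction. In WT cells 68 of the 109 rose and 0 fell, with a median log2 difference of 0.45. Of all tested genes, 11.3% rose and 13.8% fell in WT cells. In KO cells 56 of the 109 rose and 0 fell, with a median of 0.40, where 10.4% of all tested genes rose and 10.4% fell. The largest WT rises were those of the processome gene Utp6 (1.33), Nol10 (1.21) and Naf1 (1.01), an assembly factor of H/ACA RNPs, as log2 differences. The lowest WT log2 differences were those of Zfp622 (-0.28), Abt1 (-0.20) and Ddx55 (-0.17), and none of these was called.

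The comparison of activated KO and WT cells asks whether the genotypes differed in this machinery at 6 h. None of the 43 genes was called, where 0.0684% of all tested genes fell and 0.0304% rose. The log2 difference, KO minus WT, was negative in 39 of the 43 genes, with a median of -0.15 (0.903-fold), whereas it was negative in 42.9% of all tested genes, with a median of 0.04. At an unadjusted p under 0.05, 8 genes were lower in KO, against 4.13% of tested genes, and 0 were higher, against 7.65%. In 14 genes every KO T6 array lay below every WT T6 array, against 8.01% of tested genes, and in 0 genes the other way round, against 10.8%. The 14 were Nop58, Dkc1, Gar1, Utp14a, Utp20, Heatr1, Pno1, Bysl, Ebna1bp2, Noc2l, Ncl, Npm1, Ddx21 and Nolc1. The 43 genes share arrays and are not replicates of each other, so these counts were not tested. The SE of the members' differences had a median of 0.11 and ran from 0.08 to 0.24.

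The 3 smallest p-values belonged to Nop58, Nolc1 and Ebna1bp2, whose array values are given above. Nop58 had a mean log2 level of 12.88 ± 0.05 in WT and 12.33 ± 0.11 in KO at T6 (SD, n = 3), a log2 difference of -0.55 (SE 0.13, limma adjusted p = 0.169). Over all alternatives the Nop58 difference ranged from -0.62 to -0.51, with adjusted p from 0.0637 to 0.35. Nolc1 had a log2 difference of -0.42 (SE 0.14, adjusted p = 0.297) and Ebna1bp2 one of -0.30 (SE 0.12, adjusted p = 0.372). The others under an unadjusted p of 0.05 were Ddx21 (-0.30), Utp20 (-0.27), Pno1 (-0.27), Utp14a (-0.19) and Ncl (-0.18), as log2 differences. The 4 genes with a positive log2 difference were Nle1 (0.13), Nop10 (0.08), Noc4l (0.02) and Rrs1 (0.01). Those of Nop10, Noc4l and Rrs1 turned negative without KO T6 replicate 1, and those of Noc4l and Rrs1 also when arrays were centred on their medians.

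KO T6 replicate 2 was the lowest KO T6 array in 40 of the 43 genes, and the highest in Nop58, Gar1 and Ddx21. Without it the median log2 difference at T6 was -0.07 and 29 genes were negative. The 2 remaining KO arrays were below every WT T6 array in the same 14 genes, against 12.4% of tested genes. Leaving out KO T6 replicate 2 could not change this count. It was the highest KO T6 array only in genes already among the 14. The Nop58 log2 difference was then -0.62 (adjusted p = 0.208), while that of Nolc1 was -0.32, that of Ebna1bp2 -0.17 and that of Pno1 -0.16. Among the 109 other ribosome biogenesis genes, 91 were negative at T6 with all arrays (83.5%), with a median of -0.15, and 0 were called. These 109 genes were not recounted without KO T6 replicate 2, so how far their values rest on that library was not tested. The smallest p-values there were those of Rsl1d1 (-0.45, adjusted p = 0.201), Utp6 (-0.34, adjusted p = 0.202) and Exosc2 (-0.34, adjusted p = 0.217), given as log2 differences.

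**Figure D3:**
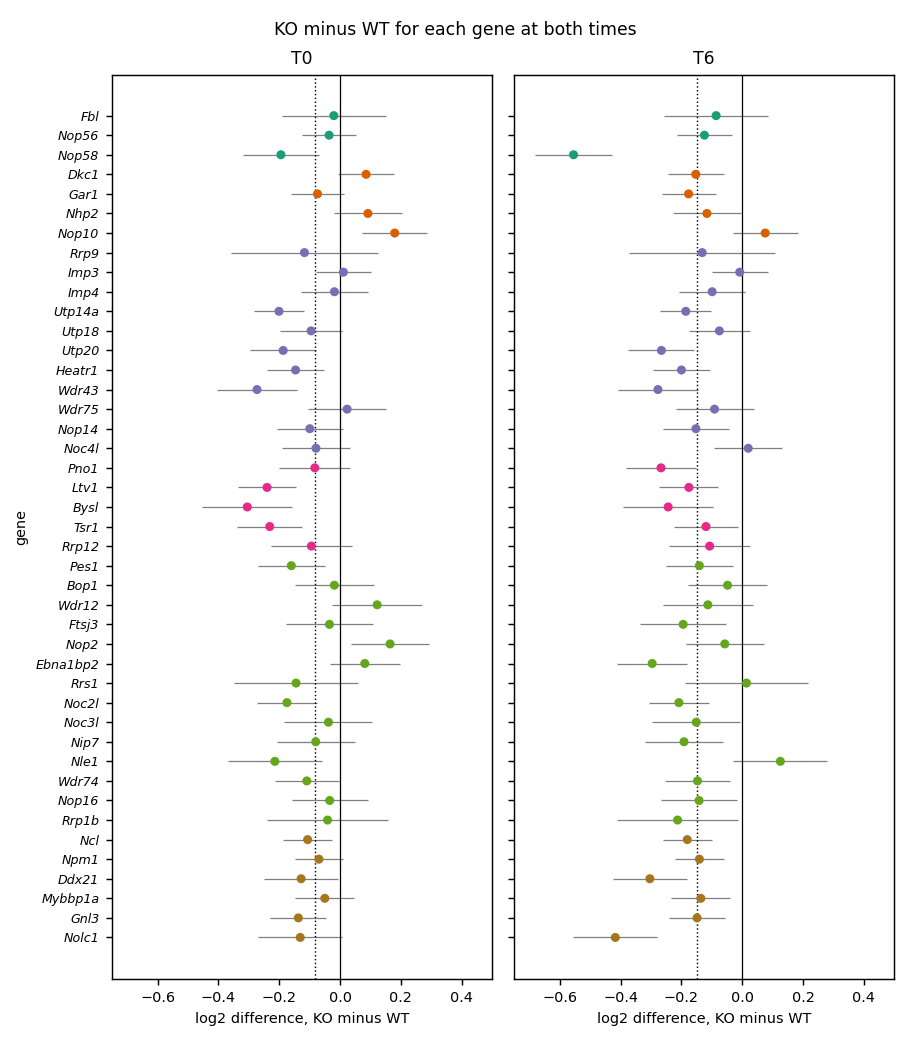
Log2 difference between KO and WT (KO minus WT) of each of the 43 genes at T0 (left) and T6 (right), with bars of 1 SE. The dotted line is the median of the 43 genes, -0.08 at T0 and -0.15 at T6. Nop58 and Nolc1 lie lowest at T6.

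In quiescent cells 0 of the 43 genes were called between the genotypes, where 0.038% of all tested genes were called, all of them lower in KO. The log2 difference was negative in 35 of the 43 genes, with a median of -0.08, against 50.04% of all tested genes and a median of -0.00011. At an unadjusted p under 0.05, 2 genes were lower in KO (Ltv1 at -0.24 and Utp14a at -0.20, as log2 differences), against 4.8% of tested genes, and 0 were higher, against 4.97%. Every KO T0 array lay below every WT T0 array in 7 genes (Utp14a, Utp20, Wdr43, Ltv1, Tsr1, Ncl and Gnl3), against 8.51% of tested genes. The opposite held for Nop10 (0.18) and Ebna1bp2 (0.08), against 8.12% of tested genes. The Ebna1bp2 value turned to -0.22 with the mean of its probe sets. Without KO T0 replicate 2 the median was -0.14 and 34 genes were negative. The box H/ACA group was the group with a positive median log2 difference at T0, 0.09. In 32 of the 43 genes the difference was negative at both times, against 28.6% of tested genes.

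**Figure D4:**
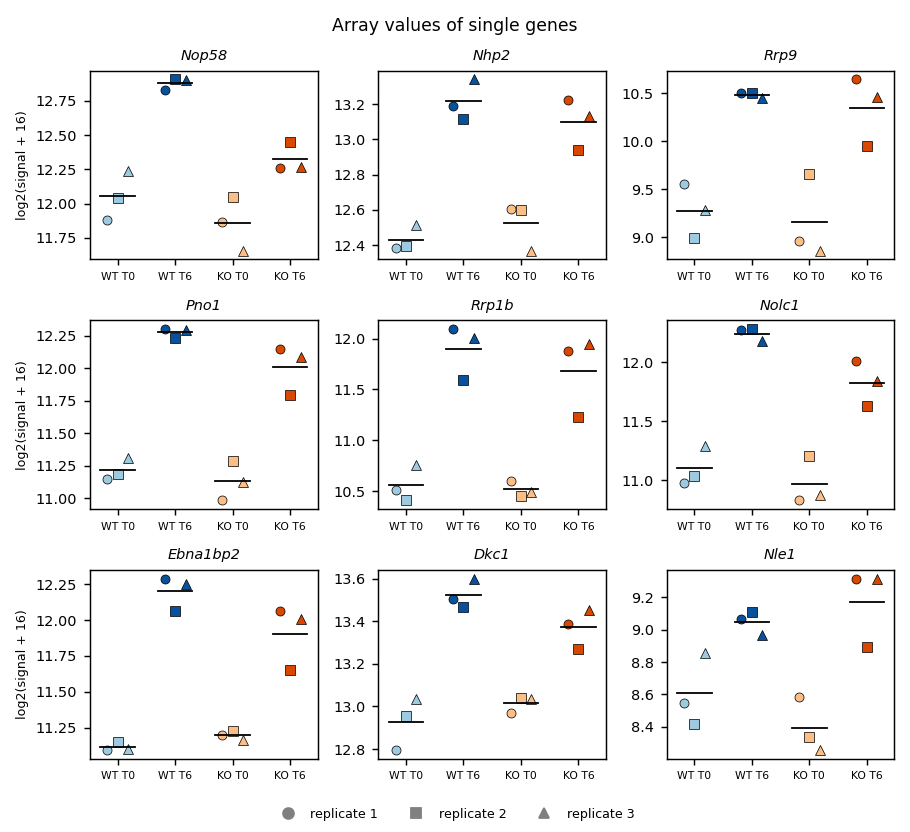
Log2 level of 9 genes on each of the 12 arrays, by group, with symbols for replicates and a line at each group mean; vertical axes differ and do not start at 0. T6 lies above T0 in each panel for both genotypes. For Nop58, Pno1, Nolc1, Ebna1bp2 and Dkc1 the KO T6 arrays all lie below the WT T6 arrays.

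The test of whether activation itself differed between genotypes, the KO change minus the WT change, called 0 of the 43 genes, and 0% of all tested genes. The log2 difference of changes was negative in 34 of the 43 genes, with a median of -0.07, against 43.2% of all tested genes and a median of 0.04. Its SE had a median of 0.16 over the 43 genes. Ebna1bp2 had the smallest p (-0.38, SE 0.16) and was the only one of the 43 under an unadjusted 0.05. It was -0.09 as the mean of its probe sets and -0.25 without KO T6 replicate 2. Nop58 (-0.36, SE 0.18) and Dkc1 (-0.24, SE 0.13) followed, all with a limma adjusted p of 0.9997. At an unadjusted p under 0.05, 1.54% of tested genes had a smaller and 3.05% a larger change in KO. Nle1 had the largest positive value (0.34, SE 0.22). Without KO T6 replicate 2 the median of the 43 was 0.016, against 0.041 for all tested genes, and 19 of the 43 were negative. The sign of the members' median therefore rests on that library.

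Of the 40 probe sets that passed the filter and did not represent their gene, 28 rose in WT cells and 22 in KO cells, and 0 fell. Their log2 difference on activation was negative in 2 in WT and 3 in KO, all of Utp18, Heatr1 or Ebna1bp2. Counting the representatives too, 83 of the 84 probe sets passed the filter, of which 66 rose in WT (9.84% of all probe sets tested) and 60 in KO (8.79%), with 0 falls. In KO against WT at T6, 73 of the 83 were negative, with a median log2 difference of -0.15, and 0 were called, where 0.399% of all probe sets tested were called lower and 0.0774% higher. Nucleolin had 5 probe sets, with log2 differences at T6 from -0.67 (1415773_at, adjusted p = 0.0635) to -0.15, and its representative, 1415771_at, stood at -0.18. Dkc1 had 3, at -0.57 (1438015_at, adjusted p = 0.0642), -0.15 and 0.10. Nolc1 had 3, at -0.64 (1450087_a_at, adjusted p = 0.0719), -0.42 and -0.34. For these genes the probe sets differed in the size of the log2 difference, and for Dkc1 also in its direction. The pair of probe sets of Bysl stood at -0.24 and 0.26, and the mean of both turned its log2 difference to 0.0062. On activation in WT cells, the second probe sets of Npm1 (0.37), Rrs1 (0.73) and Wdr43 (0.67) were called as rises where the representative was not, and those of Ddx21 gave 0.60 and 1.37, as log2 differences.

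Most markers on the B cell, myeloid, erythroid and cell cycle lists had a higher mean log2 level in KO than in WT cells, but few were called. At T6 all 11 B cell markers had a positive log2 difference in KO (median 1.32), as did 13 of 14 myeloid (median 0.74), 6 of 6 erythroid (median 1.59) and 12 of 12 cell cycle markers (median 0.90). Of these, 1 was called, the myeloid adaptor gene Tyrobp. Of all tested genes, 57.1% had a positive log2 difference at T6 and 0.0304% were called higher. All 9 CD8 T cell markers had a negative log2 difference at T6, with a median of -0.27, against 42.9% of all tested genes, and 0 were called. At T0 the medians were 0.71 for B cell, 0.47 for myeloid, 1.70 for erythroid, 0.86 for cell cycle and -0.23 for CD8 T cell markers. On these lists 0 markers were called at T0. The erythroid mean log2 level was 8.98 to 9.71 in WT T6 and 9.70 to 12.72 in KO T6, and the B cell mean was 6.83 to 7.72 and 8.03 to 9.19. The CD8 T cell mean log2 level was 12.92 to 13.05 in WT T6 and 12.44 to 12.74 in KO T6. On activation in WT cells 12 of 14 myeloid markers fell (median -2.51), and 5 of 9 CD8 T cell markers fell, where 13.8% of all tested genes fell. In KO cells 11 of 14 myeloid markers (median -1.98) and 5 of 9 CD8 T cell markers fell, where 10.4% of all tested genes fell. The part of these cells in the differences of the ribosome assembly genes was not tested. The log2 signal of the 3′ Actb control probe set exceeded that of the 5′ one by 0.71 ± 0.09 in KO T6 and 0.50 ± 0.05 in WT T6, and by 0.36 ± 0.14 in KO T0 and 0.30 ± 0.08 in WT T0 (SD, n = 3). The part of this measure of RNA quality was not tested either.

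The spread of the genes among arrays also differed by group. The median SD of the 43 log2 levels was 0.10 in WT T0, 0.05 in WT T6, 0.12 in KO T0 and 0.16 in KO T6 (n = 3 each). The median of the centred log2 levels was -0.34, -0.33 and -0.20 on the WT T0 arrays and -0.40, -0.29 and -0.44 on the KO T0 arrays. It was 0.45, 0.37 and 0.39 on the WT T6 arrays and 0.40, 0.11 and 0.29 on the KO T6 arrays. KO T6 replicate 1 lay within the WT T6 range by this measure, and KO T6 replicate 2 was the lowest of all T6 arrays.

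**Figure D5:**
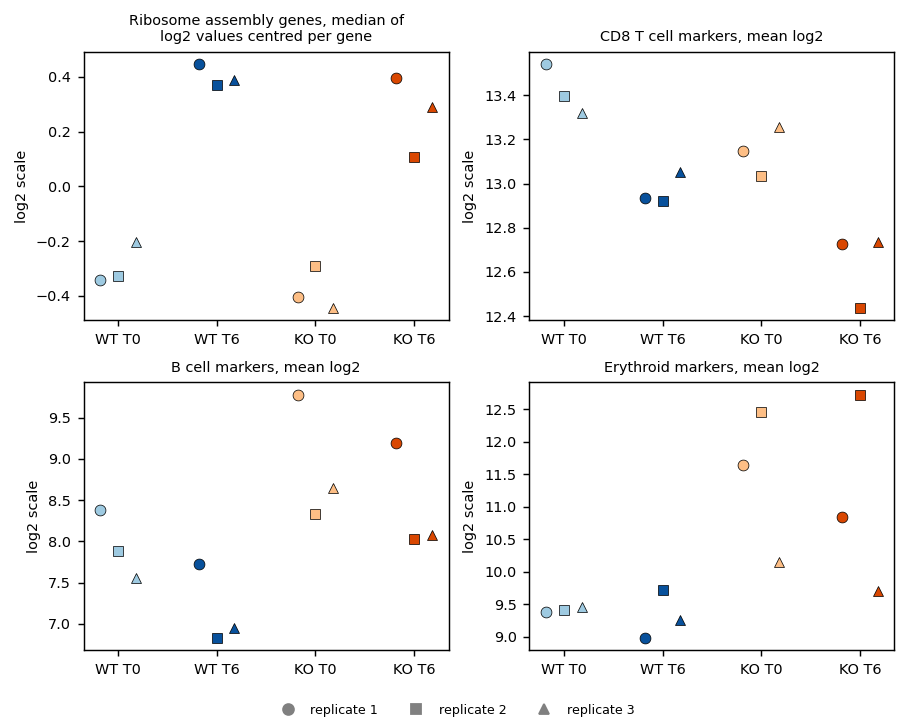
Values of each array by group on the log2 scale: the median of the 43 ribosome assembly genes, centred per gene, and the mean of the CD8 T cell, B cell and erythroid markers. Symbols mark replicates, and vertical axes do not start at 0. KO T6 replicate 2 has the lowest ribosome assembly median of the T6 arrays (0.11), the lowest CD8 T cell mean (12.44) and the highest erythroid mean (12.72).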

How the data were processed

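Gene expression was measured on 12 Affymetrix arrays. The deposited values are linear signal intensities per probe set made by the authors with GCOS, per the submitters' processing notes; its version and summary method are not given in the sources used here. Averaging the signals from percentile 2 to percentile 98 of each array, and then over the 12 arrays, gave 500.003. That the deposited intensities had been scaled is inferred from this value, and its spread between arrays is not given. Array medians lay between 61.3 and 76.2. No further normalization was applied. Of 45101 probe sets, 64 were controls, 932 carried several symbols and 9160 none in the platform annotation; these were left out of the gene tests. A gene was its probe set with the highest mean of log2(signal + 16), kept when it exceeded the array's percentile 40 on 3 or more arrays. The added 16 understates changes of weak genes. The number of arrays limits the precision.

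Differences were tested two-sided with lmFit and eBayes of limma 3.58.1 (R 4.3.3), over 4 groups with 5 contrasts, and p-values were Benjamini-Hochberg adjusted over all 13158 genes. All probe sets passing the filter were tested likewise. The test was checked on simulated data. Promoter windows came from RefSeq (GRCm38.p6); no build is given for the probes. The genes, their roles, the companion and marker lists and the rules were chosen with earlier results of these data known. By rule, any of the 44 genes could be named, and array values were given for those called between genotypes or in the opposite direction to most of their role, the largest WT change of each role, and the 3 smallest p in KO against WT at T6 and in the interaction. Array values of Imp3, Nle1 and Npm1 were added after their values were seen. Of the companion list, the 3 largest and 3 lowest WT changes and the 3 smallest p at T6 were named. NK cell markers (2 genes, mean log2 level 9.56 to 10.84) were called in 0 genotype comparisons. Alternatives were another added constant, filter, normalization, probe set rule, fit or prior, a replicate block, and leaving out arrays. A further promoter motif is not reported here.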

Additional observations from a re-analysis of the deposited data

How the results depend on the processing

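Counts of members called were within 1.5 times of those reported under every alternative run, and 0 members were called between genotypes or in the interaction under any of them. Median centring moved the WT activation median to 0.77. The KO activation median was 0.70 without KO T6 replicate 2 and 0.73 without both KO arrays numbered 2. The interaction had 19 negative genes and a median of 0.016 (0.041 for all tested genes) without KO T6 replicate 2. It had 16 and 0.042 (0.029 for all tested genes) without both. The cause of these shifts was not tested. Counting CACGCG as well as CACGTG raised the share of windows to 48.8%, since more sequences match. The shares were 23.7% for windows of tested genes and 15.4% for all windows. Leaving out each array in turn, 32 to 40 members rose in WT and 29 to 39 in KO, with medians from 0.65 to 0.72 and from 0.55 to 0.70. Of all tested genes, 8.20% to 12.1% then rose in WT and 7.24% to 10.8% in KO. The KO against WT median ranged from -0.22 to -0.07 at T6 (29 to 42 negative) and from -0.14 to -0.04 at T0 (30 to 35 negative), and the interaction median from -0.14 to 0.02 (19 to 37 negative). A fit on the arrays of the comparison alone called 27 KO rises.

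Signs of single genes turned as follows. Averaging probe sets gave -0.22 for Ebna1bp2 at T0 and, at T6, 0.0062 for Bysl, -0.031 for Noc4l and -0.051 for Rrs1. With median centring, Noc4l and Rrs1 at T6 were -0.047 and -0.053. Leaving out single arrays, the T6 values ranged from -0.0071 to 0.16 for Nop10, from -0.054 to 0.097 for Noc4l and from -0.13 to 0.20 for Rrs1, lowest without KO T6 replicate 1 and highest without KO T6 replicate 2. Of the other single-gene results over the alternatives, 2656 kept direction and side of the threshold, 104 lost their call and 33 gained one.

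Whether replicate numbers pair arrays is not known: the deviations of same-numbered arrays from their group means correlated across genes at 0.18, 0.46 and 0.38 in KO and at 0.23, -0.06 and -0.11 in WT. Pairs with different numbers ran from -0.40 to 0.14 in KO and from -0.16 to 0.23 in WT. With the replicate number as a block, 37 members rose in WT and 37 in KO, where 11.1% and 10.2% of all tested genes rose. With a random replicate block (consensus correlation 0.19), 40 and 39 rose, where 13.6% and 12.8% of all tested genes rose. Each replicate number occurred in all groups, so neither replicate block could change a log2 difference. The medians stayed at 0.65 in WT and 0.61 in KO on activation, -0.08 at T0, -0.15 at T6 and -0.07 in the interaction. With either block, 0 members were called between genotypes. The 3 arrays per group limit what can be called: the median SE between genotypes was 0.11 on the log2 scale.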
